A study of Mus musculus with 22 samples.

Results

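The cytosolic ribosomal protein genes were 95 of the 12596 genes measured. They were taken by symbol: every gene whose name begins with Rpl, Rps or Rplp and a number, together with Rpsa, leaving out the kinases named Rps6k. By name they were 43 genes of the large subunit, 31 of the small subunit, 3 of the acidic stalk, 7 paralogs or retrotransposed copies, 10 with pseudogene symbols and 1 binding protein, Rps19bp1. Of the 92 coding genes that the rule finds in the mouse annotation, 83 were measured and the others were not analysed here.

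The RNA came from 11 mice with 2 transgenes on a C57Bl/6 background: Th-cre, active in catecholamine cells, and Slc6a2-eGFP/Rpl10a. The second transgene uses the promoter of the noradrenaline transporter to put a green fluorescent tag on the ribosomal protein Rpl10a, so that ribosomes of noradrenergic cells, those of the locus coeruleus among them, can be immunoprecipitated with their RNA. For 5 mice the labels give infusion with hTyr, the human pigment enzyme tyrosinase, and for the other 6 infusion with the fluorescent protein EYFP; age and route of infusion are not in the labels. Every animal gave an immunoprecipitate (IP, labelled as noradrenergic) and the RNA before it (input, labelled as total hindbrain), and both treatments carried both transgenes. Libraries are named here by their titles, IP_501 for the immunoprecipitate and Pre_501 for the input of the same animal; values of hTyr animals are given in the order IP_501, IP_502, IP_508, IP_509 and IP_510.

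Cytosolic ribosomes are built from ribosomal RNA and a large set of proteins that are needed in near-equal amounts. Their mRNAs are short and abundant, and many begin with a run of pyrimidines, the 5′ terminal oligopyrimidine or TOP motif. Through it the mTORC1 kinase and the protein Larp1 set how much of each mRNA sits on ribosomes. Neurons keep making ribosomal proteins throughout life, to replace those that are worn out.

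RefSeq promoter windows on GRCm38.p6 were found for 65 of the 95 members, with 76 start sites in all. The start sites below are those of some of the members on which the later comparisons turn. Rpl22, which passed later in both treatments, is not shown: the longest runs at its 2 listed starts are 4 and 5 letters. No window is shown for Rps4l or Rpl32, so these sites are no measure of how many such members hold a run. Each is 30 bases long, 15 either side of the annotated start, on the coding strand. Capitals mark a run of at least 8 letters that are all C or T.
Rpl38, chr11:114668565-114668594, + strand: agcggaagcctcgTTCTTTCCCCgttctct
Rpl39, chrX:37085208-37085237, - strand: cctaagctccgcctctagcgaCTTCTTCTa
Rpl15, chr14:18270972-18271001, - strand: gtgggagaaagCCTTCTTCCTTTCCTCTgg
Rplp2, chr7:141447636-141447665, + strand: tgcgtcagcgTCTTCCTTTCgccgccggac
Rps15a, chr7:118116133-118116162, - strand: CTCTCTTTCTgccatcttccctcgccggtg
Rpl12, chr2:32961697-32961726, + strand: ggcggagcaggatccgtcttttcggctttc
Rpl10a, chr17:28328456-28328485, + strand: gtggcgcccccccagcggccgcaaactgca
In Rpl38 and Rplp2 a run of 10 pyrimidines spans the start, and in Rpl15 a run of 17 does. Rpl12 and the first of the 2 listed starts of Rpl10a hold no run of 8 in these letters, which says nothing about how the mRNA is controlled, since annotated starts can lie some bases from the true one.

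A larger share of ribosomal protein genes than of other genes held such a run. Within 20 bases of a start, 30 of 65 members (46.2%) held a run of at least 8 letters that are all C or T on the coding strand, against 1841 of 9513 other measured genes (19.4%). On the opposite strand the shares were 7.7% of members and 19.5% of other genes. The 28 subunit and stalk genes with a run and the 29 without one had medians of -0.06 and -0.06 for the log2 difference of hTyr from EYFP in IP. For IP against input the medians were -0.08 with a run and -0.01 without one in EYFP animals, and -0.19 and -0.09 in hTyr animals. These are descriptions of promoter letters and of differences, not tests.

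All members were well measured. Library depth ran from 12654489 to 25100142 reads on the measured genes, and the fewest reads on any member in any library were 164. Levels between genes are given as CPM (reads scaled to library size) per kilobase of annotated transcript, where the median member stood at 183 in input. Rps15, a small-subunit protein, was highest at 1217 CPM per kilobase in input, followed by the retrotransposed copy Rps27rt at 835 and by Rpl13a, a large-subunit protein, at 809. The small subunit had a median of 274 and the large subunit of 153 CPM per kilobase. The lowest were the nucleolar paralog Rpl7l1 at 26.0 and Rps19bp1 at 31.4. The per-kilobase level of Rps15a, 39.6 in input, rests on an annotated transcript of 5179 bases and would be higher for a shorter model. The tagged protein's own gene, Rpl10a, stood at 160 CPM per kilobase in input; reads from the transgene and from the native gene cannot be told apart.

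Several members share sequence with copies of themselves, and the counts there are uncertain because reads can be split or moved between them. Rpl37rt, a retrotransposed copy, read 3.42 ± 0.17 log2 units above its parent Rpl37 in EYFP input (SD, n = 6), and Rps27rt read 2.32 ± 0.28 above Rps27, a zinc-finger protein of the small subunit. Some paralogs stood on the other side. In EYFP input Rps27l lay at -1.25 ± 0.34 log2 units relative to Rps27, Rpl22l1 lay at -1.32 ± 0.19 relative to Rpl22, and Rps4l lay at -3.16 ± 0.07 relative to Rps4x (SD, n = 6 each). Rpl36al was above its parent Rpl36a by 0.96 ± 0.10 in EYFP input, 1.28 ± 0.16 in EYFP IP, 1.042 ± 0.15 in hTyr input and 1.39 ± 0.15 in hTyr IP. These are differences between genes within a library and are not corrected for transcript length.

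In total the members took about the same share of reads in all groups. In EYFP input the share was lowest at 1.94%, had a median of 2.04% and was highest at 2.29%. In EYFP IP it ran from 1.64% to 2.31% with a median of 2.04%. The hTyr input libraries held 2.12%, 1.98%, 2.16%, 2.12% and 2.20%, and their IP libraries held 2.01%, 1.76%, 2.16%, 2.19% and 1.55%. The 4 groups overlap, and the IP groups are the more spread: 1.997% ± 0.279 in EYFP IP (SD, n = 6) and 1.93% ± 0.27 in hTyr IP (SD, n = 5). Input held 2.07% ± 0.13 in EYFP animals and 2.12% ± 0.08 in hTyr animals.

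The spread in IP was shared by nearly all members, and it followed single libraries of both treatments. In hTyr IP 84 of the 95 members were lowest in IP_510. In EYFP IP 58 were lowest in IP_504 and 31 in IP_506, while all 95 lay above the group mean in IP_507. The median member had an SD of 0.23 log2 units in EYFP IP and 0.24 in hTyr IP, against 0.19 for the median gene in each. In input the median member's SD was 0.13 in each treatment, against 0.14 and 0.16 for the median gene. The median Pearson r between members across a group's libraries was 0.88 in EYFP IP (n = 6) and 0.80 in hTyr IP (n = 5), and 0.44 and 0.38 in the matching inputs. Members share the libraries and their scaling, so these r values only describe how they moved together.

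The 4 IP libraries with the lowest share, IP_504, IP_506, IP_502 and IP_510, were also the 4 lowest in short transcripts outside the ribosomal proteins. In these 4 the mean log2 CPM of the 1228 shortest other genes minus that of the 1228 longest was -0.38, -0.34, -0.31 and -0.26. In the other 7 IP libraries it ran from -0.13 to -0.02. Input was mixed. Pre_501 had the highest balance of all inputs, 0.37, and Pre_509 the lowest, -0.18, yet both had a share of 2.12%. Pre_510, with the highest share of the hTyr inputs at 2.20%, stood at 0.29. The members are themselves short, with a median transcript of 833 bases against 3111 for all measured genes. Whether the length balance of a library set the members' level was not tested.

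**Figure D1:**
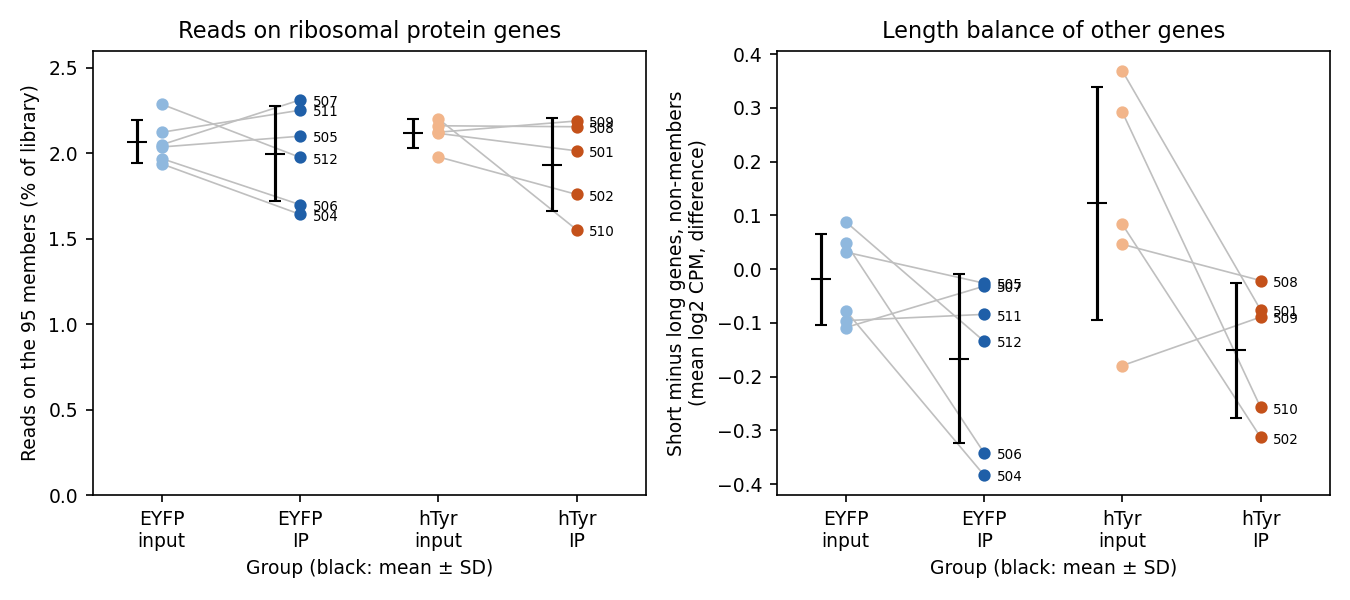
Left, share of a library's reads on the 95 members (%, y axis) in the 4 groups, with a line joining input and IP of an animal; right, mean log2 CPM of the 1228 shortest minus the 1228 longest other genes. Points are libraries, IP points carry the animal number and black bars are mean ± SD: IP_504, IP_506, IP_502 and IP_510 lie lowest in IP in both panels.

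The comparison of hTyr with EYFP in IP asks whether the RNA of the IP, labelled as noradrenergic, changed with tyrosinase. The IP also held markers of other cells. Oligodendrocyte markers averaged 9.42 log2 CPM in EYFP IP against 9.51 in EYFP input, and 9.47 in hTyr IP against 9.60 in hTyr input. How much of the members' RNA in IP came from noradrenergic cells was not tested. No ribosomal protein gene passed the threshold, an adjusted p of 0.05 in limma over all 12596 genes. The lowest adjusted p among members was 0.754, and 0.0556% of all genes passed. At an unadjusted p under 0.05 stood 2 of 95 members, both lower in hTyr, while 6.19% of all genes did. Levels were higher in hTyr for 29 members and lower for 66, with a median log2 difference of -0.05 against -0.01 over all genes. This lean rested on single libraries: without IP_510 of the hTyr group 59 were higher and 36 lower, and without IP_507 of the EYFP group 50 were higher and 45 lower. After loess correction of each library for transcript length and GC content, 40 were higher and 55 lower. In bulk RNA, fewer cells of a type and less RNA per cell cannot be told apart.

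Among large-subunit proteins, Rpl38 had the lowest unadjusted p. Rpl38 is a small protein at the ribosome surface, reported to act in translating Hox mRNAs. It read 5.14, 4.72, 4.73, 5.28 and 4.59 log2 CPM in hTyr IP, and in EYFP IP it ran from 4.91 through a median of 5.28 to 5.79. The groups overlap: 2 hTyr libraries lay within the EYFP range and 3 below it. The difference was -0.41 ± 0.15 (SE; limma adjusted p = 0.754). In hTyr input, Rpl38 read 5.08, 4.71, 4.98, 4.53 and 5.85, and in EYFP input it ran from 4.70 to 5.72 with a median of 4.89, a difference of -0.02 ± 0.22. Within input the high readings came from Pre_510 and Pre_512, 1 of each treatment.

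Rpl39, a very small protein that lines the exit tunnel, was the other member under an unadjusted p of 0.05. It read 5.75, 5.01, 5.58, 5.57 and 4.85 log2 CPM in hTyr IP. In EYFP IP it ran from 5.45 to 6.15 with a median of 5.62. IP_502 and IP_510 lay below every EYFP library and the other 3 hTyr libraries lay within their range. The difference was -0.35 ± 0.16 (SE; limma adjusted p = 0.802).

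The tagged gene and the structural landmarks of the ribosome showed no difference that passed. Rpl10a read 6.81, 6.76, 6.91, 6.90 and 6.33 log2 CPM in hTyr IP, and 6.59 to 7.01 with a median of 6.79 in EYFP IP. Only IP_510 fell outside the EYFP range, and the 95% confidence interval of the difference ran from -0.29 to 0.17. Among the proteins close to the peptidyl transferase centre, the interval for Rpl3 was -0.16 to 0.26 and that for Rpl10 was -0.20 to 0.29. Rpl5 and Rpl11, which bind 5S RNA and can hold Mdm2, had intervals of -0.21 to 0.26 and -0.31 to 0.14. Rpl13a, which can leave the ribosome to silence inflammatory mRNAs, had an interval of -0.37 to 0.24.

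In the small subunit, Rps6, the classical S6 kinase substrate, had an interval of -0.22 to 0.24 and Rps19, the gene most often mutated in Diamond-Blackfan anaemia, one of -0.34 to 0.24. Rpsa, the laminin-receptor protein, differed by -0.16 ± 0.11, Rps27 by -0.25 ± 0.16 and Rps27a, which is made as a fusion with ubiquitin, by -0.22 ± 0.15 (SE; none passed in limma). No stalk gene passed: Rplp1 differed by -0.18 ± 0.14, Rplp2 by -0.18 ± 0.13, and the interval of Rplp0, the anchor of the stalk, ran from -0.21 to 0.18.

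Of the paralogs, Rps4l had the largest positive value, 0.15 ± 0.10 (SE; limma adjusted p = 0.858). The intervals of the other copies were -0.36 to 0.14 for Rpl22l1, -0.20 to 0.28 for Rpl36al, -0.13 to 0.30 for Rps27l, -0.13 to 0.20 for Rpl7l1, -0.31 to 0.26 for Rpl37rt and -0.45 to 0.10 for Rps27rt. Rpl7, which the naming rule adds, had an interval of -0.14 to 0.33. The parent genes Rpl22 and Rpl36a had intervals of -0.22 to 0.18 and -0.36 to 0.21. In no member were the 2 groups fully separate, which 0.651% of all genes were.

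The same contrast in input also gave 0 of 95 members past the threshold (limma; lowest adjusted p 0.990), where 0.00794% of all genes passed. No member had an unadjusted p under 0.05, against 3.03% of all genes, and no member's groups were separate, against 0.175%. Here the lean was the other way: 72 members were higher in hTyr and 23 lower, with a median of 0.03 against -0.01 over all genes. Rps20 differed by 0.11 ± 0.08, Rps26, which lies at the mRNA exit channel, by 0.09 ± 0.06, and Rplp1 by 0.08 ± 0.07 (SE; none passed). After the same correction, 42 were higher and 53 lower. Without the animal of Pre_510, 50 were higher and 45 lower.

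The interaction, which asks whether the hTyr difference in IP was that in input, passed in 0 of 95 members (limma; 0.00794% of all genes). It was negative in 74 members, with a median of -0.08 against 0.00 over all genes, and no member had an unadjusted p under 0.05. Without the animal of IP_510 it was positive in 56 members and negative in 39, with a median of 0.02. After the correction it was positive in 42 and negative in 53, with a median of -0.03. The lowest unadjusted p values belonged to Rps13 at -0.34 ± 0.18 and Rpl31 at -0.29 ± 0.15 (SE; limma adjusted p = 0.996 each). Other always-listed members past 1 SE were Rpl39 at -0.34 ± 0.22, Rplp2 at -0.30 ± 0.21, Rplp1 at -0.27 ± 0.17, Rps27 at -0.25 ± 0.24 and Rpl11 at -0.16 ± 0.14. Rpl7l1 stood at 0.09 ± 0.09, and the interval of Rps4l ran from -0.16 to 0.41.

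In IP, the shorter subunit and stalk genes tended to the more negative values. Across the 77 subunit and stalk genes, Spearman's rho of the hTyr difference in IP with transcript length was 0.33, and for the interaction it was 0.41. The 19 shortest of them had a median difference of -0.17 in IP, with 17 of 19 negative, and the 19 longest had a median of -0.01, with 11 of 19 negative. In input the rho was -0.18. After the same correction, rho was 0.09 in IP and 0.03 for the interaction. With each animal left out in turn it ran from 0.20 (without that of IP_507) to 0.41 in IP. In input it ran from -0.49 without the animal of Pre_509 to 0.20 without that of Pre_510, so its sign rests on single animals. For the interaction it ran from 0.09 without the animal of IP_510 to 0.50. Over all 95 members the relation was weaker, with a rho of 0.23 in IP and 0.31 for the interaction. The 23 shortest of the 95 had a median difference of -0.07 in IP, with 16 of 23 negative. Without the animal of IP_510, rho over the 95 was 0.10 in IP and the 23 shortest had a median of 0.04. Genes are not independent replicates and share the same 11 libraries, so rho is given as a description.

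**Figure D2:**
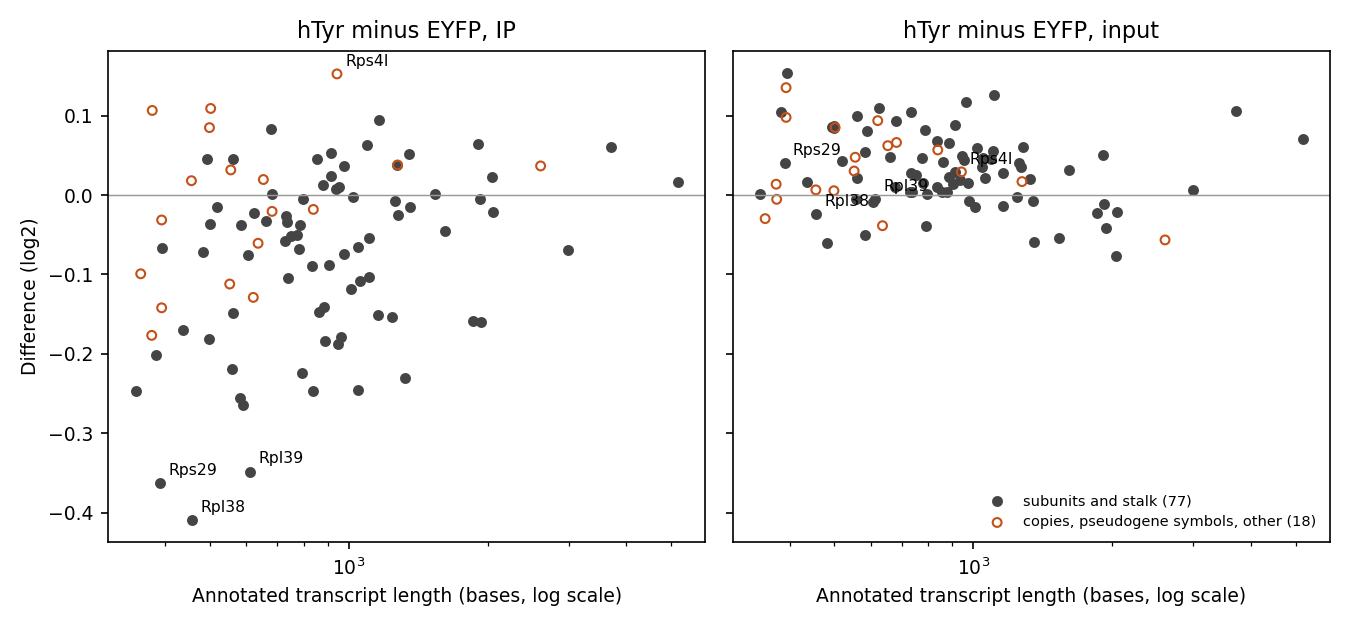
Log2 difference of hTyr from EYFP (y axis) against annotated transcript length (bases, log scale) for the members, in IP (left) and input (right). Filled points are the 77 subunit and stalk genes and open points the other 18: in IP the lowest values, Rpl38 at -0.41, Rps29 at -0.36 and Rpl39 at -0.35, belong to short transcripts, and in input Rpl38 is at -0.02.

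IP against input asks which RNAs the tagged ribosomes held above or below whole hindbrain. All 8 noradrenergic markers were higher in IP in both treatments, Dbh by 4.02 ± 0.20 and Slc6a2 by 3.94 ± 0.17 log2 units in EYFP animals and by 4.30 ± 0.22 and 4.47 ± 0.22 in hTyr animals (SE; limma). In input, Slc6a2 was lower in hTyr than in EYFP animals, with a difference of -0.91 ± 0.13 (SE, limma adjusted p = 0.0339). Markers of other cells were present in IP too. Of 3 serotonergic markers 2 were higher and 1 lower in EYFP animals, with Tph2 at 1.23 ± 0.15. In hTyr animals 2 were higher and 0 lower, with Tph2 at 1.28 ± 0.14. Of 2 glutamatergic markers 1 was higher in each treatment, Slc17a6 at 1.08 ± 0.14 and 1.33 ± 0.08. Of 3 GABAergic markers 3 were higher in EYFP animals and 2 in hTyr animals, with Gad1 at 0.84 ± 0.11 and 0.88 ± 0.11 (SE, limma). Over all genes 28.5% passed as higher in IP in EYFP animals and 27.4% in hTyr animals. The 6 oligodendrocyte markers averaged 9.42 ± 0.14 log2 CPM in EYFP IP (SD, range 9.22 to 9.57) and 9.51 ± 0.13 in EYFP input, and 9.47 ± 0.19 in hTyr IP and 9.597 ± 0.111 in hTyr input. Of these 6, 1 passed as higher and 3 as lower in EYFP animals, and 2 as higher and 3 as lower in hTyr animals. Astrocyte markers averaged 7.38 against 7.06 in EYFP animals, with ranges of 6.96 to 7.66 and 6.93 to 7.19, and microglia markers 4.82 against 4.82. In hTyr animals the averages were 7.42 against 6.98 and 4.86 against 4.89. Of 6 astrocyte markers 3 passed as higher in EYFP animals and 4 in hTyr animals, and 0 as lower in either. The part of RNA from other cells in the IP values above and below was not tested.

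Against that background the ribosomal protein genes stood close to input. In EYFP animals 11 of 95 members (11.6%) passed in limma, 2 higher and 9 lower, where 56.5% of all genes passed and 28.1% passed as lower in IP. In hTyr animals 23 of 95 (24.2%) passed, 1 higher and 22 lower, where 54.4% of all genes passed and 27.0% as lower. The median member differed by -0.04 in EYFP animals and -0.13 in hTyr animals, against -0.03 and -0.04 over all genes. With the animal as a replicate block, the counts were 25 (4 higher, 21 lower) and 34 (2 higher, 32 lower), where 64.6% and 59.1% of all genes passed. With each library centred on its median, the split was 1 higher and 15 lower in EYFP animals and 1 higher and 39 lower in hTyr animals. Without the animal of IP_504 the EYFP count was 6, and without that of IP_506 it was 5. Without that of IP_512 the EYFP split was 7 higher and 7 lower, and without that of IP_510 the hTyr split was 8 higher and 10 lower, with a median of -0.03. Of the calls, 8 members were shared, which is 72.7% of the EYFP calls and 34.8% of the hTyr calls, and whether the fractions differed more in hTyr animals is what the interaction tested.

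Rpl12, a protein at the base of the stalk where elongation factors bind, was the member most clearly below input. In EYFP animals it ran from 5.94 through a median of 6.04 to 6.14 log2 CPM in input and from 5.25 through 5.75 to 5.84 in IP. In hTyr animals it read 6.10, 5.90, 5.88, 6.23 and 6.07 in input and 5.37, 5.23, 5.72, 5.53 and 5.60 in IP. Every IP library lay below every input library of its treatment. The differences were -0.40 ± 0.09 (SE; limma adjusted p = 0.00151) and -0.55 ± 0.10 (adjusted p = 0.000295), which are levels of 0.759 and 0.684 times input.

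Rps4l, an autosomal paralog of Rps4x, was the member most clearly above input. In EYFP animals it ran from 5.22 to 5.39 in input (median 5.31) and from 5.46 to 6.00 in IP (median 5.70). In hTyr animals it read 5.58, 5.45, 5.28, 5.02 and 5.36 in input and 5.96, 5.90, 5.88, 5.79 and 5.63 in IP. Here too the fractions were separate within each treatment. The differences were 0.37 ± 0.09 (SE; limma adjusted p = 0.00183) and 0.50 ± 0.11 (adjusted p = 0.000836), or 1.29 and 1.41 times input. Its parent Rps4x stood at 8.44 ± 0.13 in EYFP IP and 8.47 ± 0.07 in EYFP input (SD, n = 6). These 2 were the only members in EYFP animals whose fractions were both separate and past the threshold, while 30.1% of all genes were separate.

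In hTyr animals 5 members were separate and lower: Rpl12, Rps15a, Rpl22, Rplp2 and Rpl32, where 37.5% of all genes were separate. Rps15a, a protein of the small subunit, read 7.66, 7.65, 7.72, 7.76 and 7.81 in hTyr input and 7.55, 7.38, 7.41, 7.44 and 7.07 in hTyr IP, a difference of -0.35 ± 0.09 (SE; limma adjusted p = 0.00326). In EYFP animals it ran from 7.57 to 7.81 in input and from 7.13 to 7.57 in IP, and differed by -0.29 ± 0.08 (adjusted p = 0.00461). Its 3 pseudogene-named copies, Rps15a-ps4, Rps15a-ps5 and Rps15a-ps6, passed as lower in both treatments, by -0.38 to -0.62 log2 units. They share sequence with Rps15a, so the 4 calls are not separate evidence.

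Rplp2, a phosphoprotein of the stalk, read 7.36, 7.01, 7.04, 7.002 and 7.71 in hTyr input and 6.90, 6.57, 6.94, 6.97 and 6.83 in hTyr IP. It differed by -0.38 ± 0.13 (SE; limma adjusted p = 0.0180), and the call was lost without the animal of IP_501 or that of IP_510. Rplp2 also did not pass with sample quality weights (limma adjusted p = 0.0507). In EYFP animals its fractions overlapped widely, with an interval of -0.38 to 0.21. Rpl22, the large-subunit protein that binds a viral RNA and shapes T cell development, differed by -0.27 ± 0.08 in each treatment (limma adjusted p = 0.0107 in EYFP and 0.00980 in hTyr), and the EYFP call was lost without the animal of IP_504. Its paralog Rpl22l1 passed in hTyr animals, at -0.29 ± 0.11 (adjusted p = 0.0341), a call lost without the animal of IP_502 or that of IP_510. Rpl22l1 also did not pass there with eBayes run without trend (limma adjusted p = 0.0569). In EYFP animals it read -0.15 ± 0.11 and did not pass, but with the length and GC trend removed it passed at -0.28 (limma adjusted p = 0.00304). The interaction for Rpl22l1, -0.14 ± 0.16, did not pass.

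**Figure D3:**
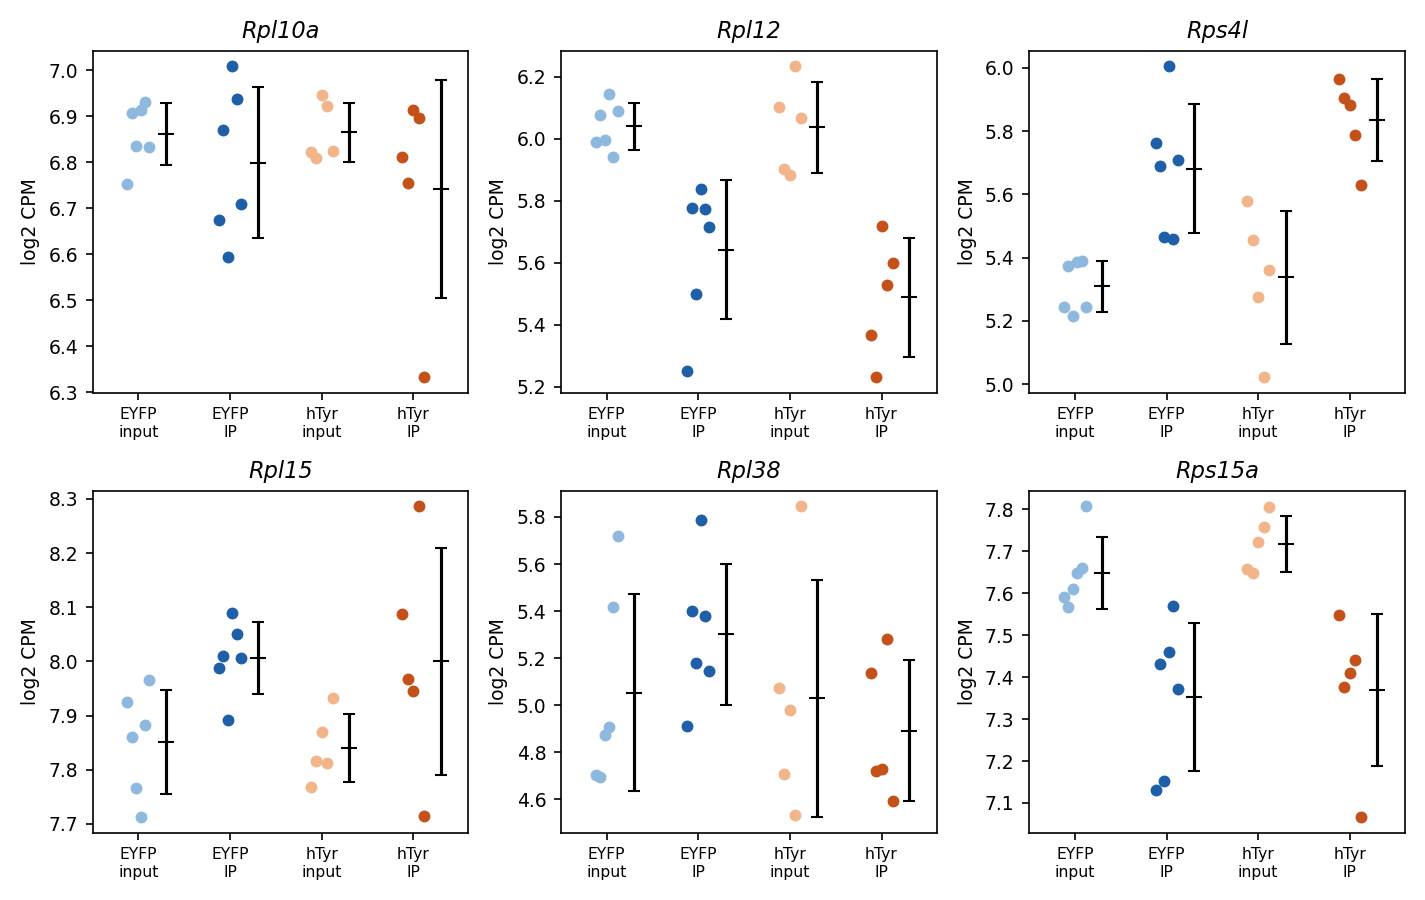
Log2 CPM (y axis, not starting at 0) of 6 members in every library of the 4 groups; points are libraries and black bars mean ± SD. Rpl12 and Rps15a lie lower in IP and Rps4l higher, whereas Rpl10a and Rpl38 overlap across all groups.

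Rpl15, which has the longest pyrimidine run of the start sites shown, was the other member higher in EYFP animals. It ran from 7.71 to 7.97 in input and from 7.89 to 8.09 in IP and differed by 0.15 ± 0.06 (SE; limma adjusted p = 0.0409). In hTyr animals it read 8.09, 7.97, 7.95, 8.29 and 7.71 in IP and the difference of 0.16 ± 0.09 did not pass. The other members lower in EYFP animals were Rpl7a at -0.20, Rpl4 at -0.17 and the copy Rpl17-ps8 at -0.60. The other calls in hTyr animals, all lower, included Rpl14, Rpl17, Rpl27a, Rpl28, Rpl30, Rpl31, Rpl34, Rpl35, Rpl36, Rps13 and Rpl17-ps8. Of the subunit genes named here Rpl17 had the largest difference, -0.45 ± 0.11. By class, 12 of 43 large-subunit, 4 of 31 small-subunit and 1 of 3 stalk genes passed in hTyr animals, and 5, 1 and 0 in EYFP animals. Over all genes 54.4% passed in hTyr animals, 27.0% as lower, and 56.5% in EYFP animals, 28.1% as lower. Whether the classes differ from each other was not tested.

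The tagged gene did not stand apart between fractions. Rpl10a averaged 6.80 ± 0.16 log2 CPM in EYFP IP and 6.86 ± 0.07 in EYFP input (SD, n = 6), with an interval of -0.22 to 0.09 for the difference. In hTyr animals the averages were 6.74 ± 0.24 for IP and 6.87 ± 0.06 for input (SD, n = 5), a difference of -0.12 ± 0.10 (SE; limma adjusted p = 0.313).

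Of the other listed members none passed in either treatment in the main fit, but some did under alternatives. With the replicate block, Rpl39, Rplp1 and Rps19 passed as lower in hTyr animals (limma adjusted p = 0.0371, 0.0269 and 0.0347). With median centring and no block they passed too (limma adjusted p = 0.0297, 0.0160 and 0.0236). Without the animal of IP_510, Rpl36al passed as higher in hTyr animals (limma adjusted p = 0.0065). Without that of IP_511, Rpl36a passed as lower in EYFP animals (limma adjusted p = 0.0488). Rpl36al differed by 0.16 ± 0.09 and 0.18 ± 0.12 in EYFP and hTyr animals, and Rpl36a by -0.15 ± 0.10 and -0.16 ± 0.11. Rps19 differed by -0.13 ± 0.12 and -0.23 ± 0.11, and Rps6 by -0.11 ± 0.08 and -0.10 ± 0.09. Rpl39 differed by -0.38 ± 0.17 in hTyr animals (limma adjusted p = 0.0662), with an interval of -0.29 to 0.22 in EYFP animals. Rpl3 differed by -0.12 ± 0.07, Rpl10 by -0.13 ± 0.09, Rplp0 by -0.09 ± 0.08, Rps27l by -0.09 ± 0.08, Rps27a by 0.15 ± 0.14 and Rpl11 by 0.12 ± 0.09 in EYFP animals. In hTyr animals Rplp1 differed by -0.25 ± 0.11 (adjusted p = 0.0541), Rpl5 by 0.16 ± 0.12 and Rpl7l1 by 0.10 ± 0.08. Rpl13a, Rpsa and Rps27 lay within 1 SE of 0 in both.

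**Figure D4:**
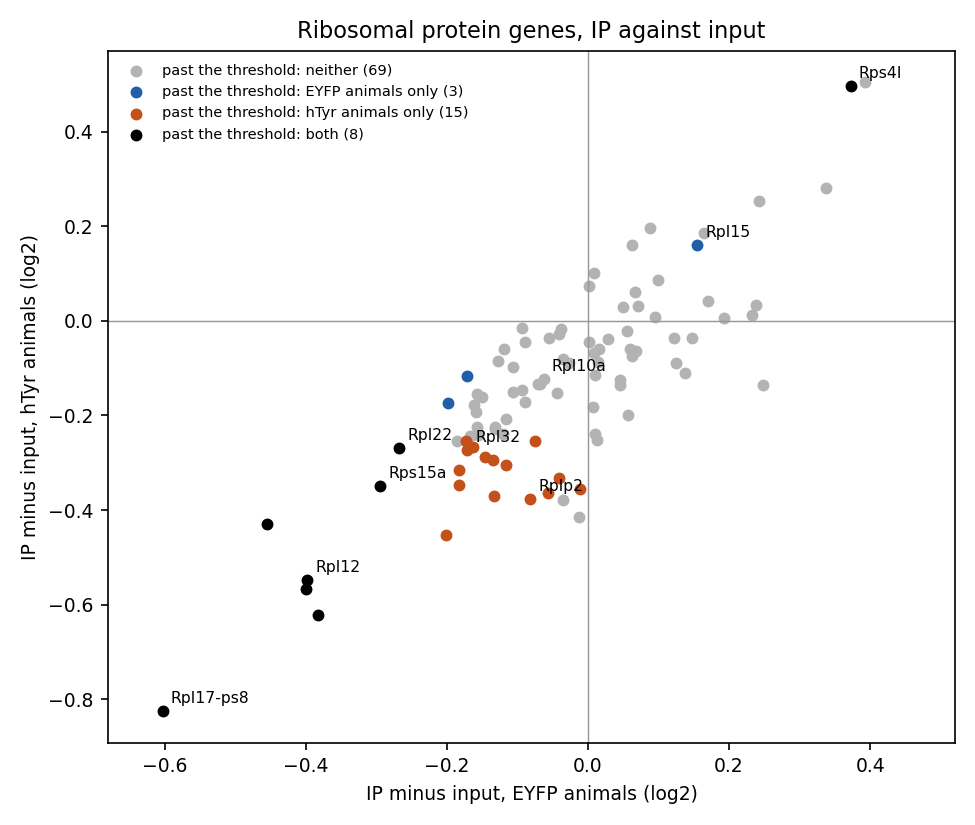
Log2 difference of IP from input in EYFP animals (x axis) and hTyr animals (y axis) for the 95 members; colours mark in which treatment a member passed the threshold (8 both, 3 EYFP only, 15 hTyr only, 69 neither). Rps4l lies at the upper right, and Rpl12 and Rpl17-ps8 at the lower left.

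Some ribosomal proteins lie outside the symbol rule. Rack1, the scaffold on the small-subunit head, was higher in IP in EYFP animals by 0.19 ± 0.06 (SE; limma adjusted p = 0.0159) and read 0.11 ± 0.09 in hTyr animals. Fau, a ubiquitin-like fusion that yields Rps30, read 0.11 ± 0.12 and -0.10 ± 0.14. In hTyr against EYFP neither passed in IP or input.

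Genes that make or steer ribosomes were counted in the same way, where 28.5% of all genes passed as higher in IP in EYFP animals and 27.4% in hTyr animals. Of 37 ribosome biogenesis genes measured, 25 were higher and 0 lower in IP in EYFP animals, and 23 higher and 1 lower in hTyr animals. Nop58, of the box C/D particles, was higher by 1.65 ± 0.15 and 1.98 ± 0.16 and Nmd3, the export adaptor of the large subunit, by 1.36 ± 0.13 and 1.47 ± 0.13 (SE; limma). The list's median was 0.36 and 0.39. Of 12 RNA polymerase I genes 7 were higher and 1 lower in EYFP animals, and 3 higher and 1 lower in hTyr animals, with Polr1e at 0.55 ± 0.10 and 0.85 ± 0.12.

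Elongation factors and other mRNAs of the TOP type were mixed. Of 9 elongation factors 0 were higher and 2 lower in EYFP animals, Eif5a at -0.38 ± 0.08 and Eef1a1 at -0.33 ± 0.08, and in hTyr animals 1, Eif5a at -0.31 ± 0.08, was lower (SE; limma). Of 15 other TOP-type genes 5 were higher and 2 lower in EYFP animals and 5 higher and 3 lower in hTyr animals; Npm1, a nucleolar chaperone, was higher by 0.83 ± 0.13 and 1.02 ± 0.12. Of 15 genes of TOP mRNA and mTORC1 control 5 were higher and 3 lower, then 5 higher and 2 lower, with Larp4, a poly(A)-tail protecting protein, at 1.12 ± 0.14 and 1.24 ± 0.15 and Eif4ebp2, a repressor of cap-dependent initiation, at -0.85 ± 0.11 and -0.91 ± 0.13. Of 10 genes listed as S6 kinases by name, Rps6ka5 and Rps6ka6 among them, 5 were higher and 1 lower, then 4 higher and 2 lower. In hTyr against EYFP, 0 genes of these lists passed in IP or input, where 780 and 382 of all genes had an unadjusted p under 0.05 and limma's adjusted threshold was passed by 7 and 1.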

How the data were processed

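The authors deposited a table of log2 values for 12596 genes in 22 libraries. The submitters' processing notes name STAR, featureCounts and the build mm10, with no version; the filter, normalization and strand setting are not given in the sources used here, and the labels say that a company prepared the libraries. The deposited log2 values proved to be log2 CPM with a pseudocount averaging 2 reads. Whole reads were recovered for 100% of values (tolerance 0.1 read), which gave depth. Without molecular identifiers, depth speaks of counting error only.

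Tests used limma 3.58.1 under R 4.3.3 (lmFit, then eBayes with trend) without further transformation, and p-values were adjusted by Benjamini-Hochberg over all genes and a threshold of 0.05; errors and intervals are limma's moderated ones. The fits were tested on simulated data. Tables were made with Python 3.11.15. Animals are the replicates. Main fits used no replicate block; IP and input of an animal share its number, and their deviations from the group means correlated at 0.45 on average (0.28 to 0.63 over 11 animals), against -0.10 between animals, so the numbers pair the libraries. Alternatives were eBayes without trend, other scalings, filters, pseudocount and weights, a shared spread, the replicate block, and leaving out each animal. Another was removal of each library's loess trend on transcript length and GC content (span 0.4). Voom on the recovered reads was chosen after seeing the data. Lengths came from GENCODE M21 for GRCm38, and promoter windows from RefSeq.

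The members and gene lists were chosen with earlier results of these data known. The rule for named members was a fixed list of 21, plus, per comparison, the 3 largest changes each way that passed without overlap, or the 2 lowest p where none passed; Rps29, Rpl15, Rpl32, Rpl37rt, Rps27rt and the other members named as passing fall outside it, chosen with their values already seen. From other lists at most the 2 largest changes that passed were named, and Fau and Rack1 always; some genes that the rule names are not reported here.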

Additional observations from a re-analysis of the deposited data

Results flagged for a closer look

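In 124 groups of 5 or 6 libraries (31 named members in 4 groups), 4 held a library far from the others by Dixon's ratio, where chance gives about 6.2 (1 in 20). Rpl10a, the tagged gene, read 6.33 log2 CPM in hTyr IP (IP_510), where the next lowest read 6.76. Rpl36al read 6.93 in EYFP input (Pre_512; next 6.67) and 6.9995 in hTyr input (Pre_510; next 6.67). Rps27a read 6.94 in EYFP input (Pre_512; next 6.53). Pre_510 and Pre_512 each held the highest reading of 51 of the 95 members in their input group.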

How the results depend on the processing

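In hTyr against EYFP, in IP and in input, and in the interaction, 0 members passed under each alternative run, leaving out each animal among them. IP against input in EYFP animals gave 11 calls, and 22 with the length and GC trend removed, 25 with the replicate block, 35 with the replicate block and the trend removed, and 5 to 15 when an animal was left out (6 without that of IP_504, 5 without that of IP_506). In hTyr animals it gave 23, and 40 with median centring or centring on the other genes, 34 with the replicate block, 35 with the block and the trend removed, and 16 to 25 when an animal was left out. The cause of these shifts was not tested. Rpl5 in hTyr animals turned to -0.14 with the length and GC trend removed, with and without the replicate block, and with the block it passed there as lower (limma adjusted p = 0.0377), as against 0.16 without either; Rps27 in the interaction turned to 0.0054 without the animal of IP_510 (range -0.39 to 0.0054). Named members whose difference was under 1 SE changed sign under some alternative in 12 of 16 cases in IP and 15 of 20 in input, so the sign of such a value is not read. Depth was not limiting, at 164 reads or more per member and library; 5 and 6 animals limit what can be told.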
